A study of Mus musculus with 9 samples.

Results

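The genes described here are 10 transcriptional regulators of adipocytes, Pparg, Cebpa, Cebpb, Cebpd, Klf15, Rxra, Tle3, Irf4, Nfia and Klf11. They were taken by symbol, each as the brightest array row that the platform annotation names with that symbol alone, out of 72688 rows of the table. All 10 had 1 such row and all 10 passed the filter on dim rows, which left 16639 genes for the tests. RNA came from inguinal white fat, a subcutaneous depot of the groin, of mice in 3 groups with 3 arrays each. The cold group had the genotype Adiponectin-rtTA; TRE-Cre; Zfp423+/+ and spent the last 14 of 28 days on doxycycline chow at 6 °C. The knockouts (Adiponectin-rtTA; TRE-Cre; Zfp423 loxP/loxP) and the controls (Adiponectin-rtTA; TRE-Cre; Zfp423+/+) stayed at room temperature for all 28 days. Mice of every group thus carried both transgenes and ate doxycycline, from 8 weeks of age. The activator is driven by the adiponectin promoter, so that Cre acts in adipocytes, while the other cells of the pad keep Zfp423. The design asked how close the knockout tissue is, in gene expression, to the cold-exposed tissue in which beige adipocytes form.

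PPARγ, the product of Pparg, is the nuclear receptor that adipocytes need to form and to stay differentiated, and it binds DNA as a heterodimer with RXR proteins. C/EBPβ and C/EBPδ act early in adipogenesis and switch on Pparg and Cebpa, after which PPARγ and C/EBPα sustain each other and bind near most genes of the mature adipocyte. Factors of the KLF, NFI, IRF and TLE families work with this pair, and some of them set how far an adipocyte runs the white or the thermogenic programme. Zfp423 is a zinc finger protein known for holding white adipocytes in the white state.

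In bulk tissue, fewer cells of a type and less RNA per cell cannot be told apart. The labels do not say that the 3 arrays of a group come from separate mice, so the p-values refer to the spread among these arrays alone, and it may be technical. Zfp423 itself measured 8.83, 8.72 and 8.40 in the cold group, 7.56, 8.15 and 8.04 in the knockouts and 8.74, 8.22 and 8.40 in the controls, in log2 units. All 3 knockout arrays lay below every other array, and their difference from the controls of -0.53 ± 0.20 (SE) did not pass (limma, adjusted p = 0.254). As the tissue label implies, adipocyte markers were bright, with mean log2 values of 14.9 to 19.9 for the 7 measured, on a scale that ends at 19.93. Markers of other cells were present too, with means of up to 15.8 for macrophages and up to 14.4 for skeletal muscle, where 7 of 8 markers passed the filter, while all 8 mammary epithelium markers lay below it. One array in each group held a value between those of the other arrays of its group more often than either of them did. This was knockout replicate 3 for 74.0% of genes, control replicate 3 for 67.7% and cold replicate 2 for 53.1%. In all, 56.6% of tested genes had the same value on at least 2 arrays. With these 3 arrays left out, limma called 0 genes in each of the 3 comparisons, against 682 (knockout and control), 781 (cold and control) and 965 (cold and knockout) at an unadjusted p under 0.05. No value of any gene named below passed without them. Leaving out the in-between arrays keeps the arrays that lie farther apart, and fewer of them. A loss of calls follows in part from that choice, so it cannot show whether the in-between arrays are independent. Whether the in-between arrays are independent of the others in their group was not tested, and if they are not, the SDs, standard errors and intervals given here are too narrow.

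None of the 10 regulators changed past the threshold of an adjusted p of 0.05 in any comparison, by limma over all tested genes. Between the knockouts and the controls, 0 of 10 passed, where 0.379% of all tested genes did, and 0 of 10 had an unadjusted p under 0.05, against 16.3% of all genes. Between the cold group and the controls, 0 of 10 passed, with a background of 1.56%, and 2 (Klf15 and Klf11) had an unadjusted p under 0.05, against 20.4%. Between the cold group and the knockouts, 0 of 10 passed, with a background of 2.42%, and 3 (Pparg, Cebpa and Klf15) had an unadjusted p under 0.05, against 26.9%. Groups were fully separate for 0, 4 and 3 regulators in these comparisons, where 17.4%, 32.9% and 32.5% of all tested genes were. These shares lie near the background, so the counts show nothing particular to the 10 genes.

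Of the 30 differences, 22 had a 95% interval that lay within 1 log2 unit, or 2-fold, of no change, and 12 had one within 0.5 log2 units. The median difference of the 10 genes was -0.05 for knockouts against controls, 0.18 for cold against control and 0.11 for cold against knockout. Over all tested genes the medians were 0.02, -0.02 and -0.03. Differences above 0 numbered 3, 6 and 6 of 10, against 56.9%, 43.3% and 42.6% of all genes. The comparisons of the knockouts and of the cold group with the controls share the control arrays, so their values are given side by side only.

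**Figure D1:**
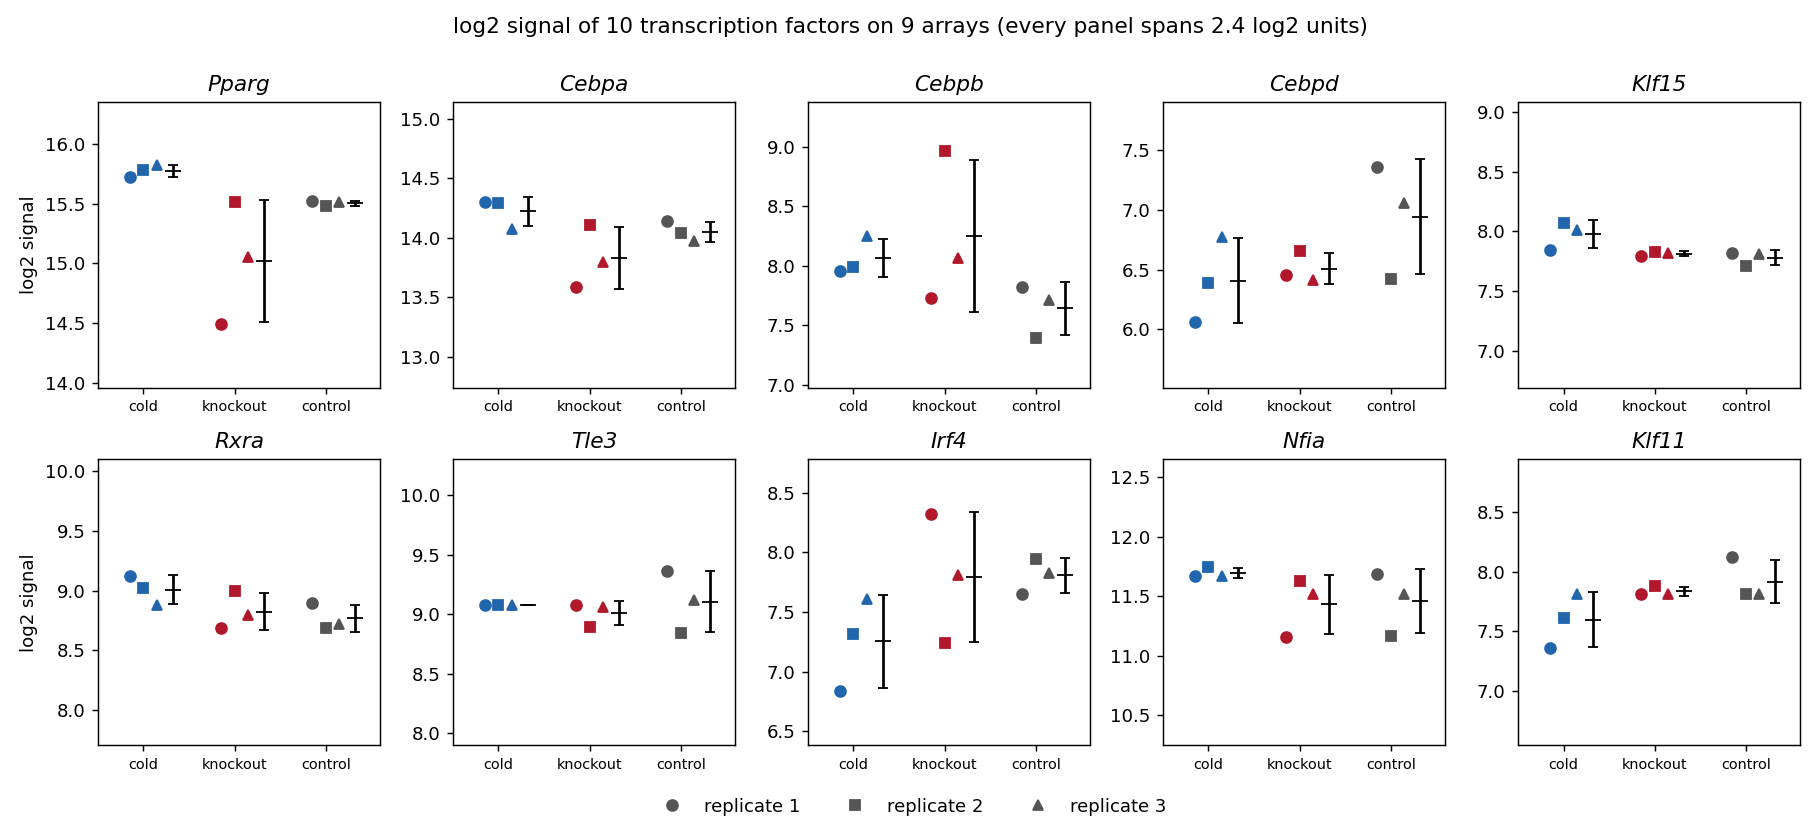
Log2 signal (vertical axis) of the 10 regulators on each of the 9 arrays, by group, with circles, squares and triangles for replicates 1, 2 and 3 and bars for the mean ± SD of 3 arrays. Pparg and Cebpa were lowest on knockout replicate 1 (14.49 and 13.59), while knockout replicate 2 lay at 15.52 and 14.11, close to the control arrays.

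Pparg (Entrez 19016) held log2 values of 15.72, 15.78 and 15.83 in the cold group, 14.49, 15.52 and 15.05 in the knockouts and 15.52, 15.48 and 15.52 in the controls. The cold arrays were higher than all others, by a small margin, and did not overlap the controls. The knockouts spread widely, with replicate 1 far below the controls and replicate 3 between. Knockout replicate 2 held the same value as control replicate 3. Means were 15.78 ± 0.05 in the cold group, 15.02 ± 0.52 in the knockouts and 15.51 ± 0.02 in the controls (SD, n = 3 each). The SD of the knockouts was at or above that of 91.4% of all tested genes in that group, and the SD of the controls at or above that of 14.6%.

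In order, the mean of Pparg was highest in the cold group, then in the controls, then in the knockouts, and neither neighbouring pair passed the test. Knockouts differed from controls by -0.49 ± 0.22 (SE), with a 95% interval of -1.01 to 0.04 and an adjusted p of 0.342. This is a fold of 0.714, with an interval of 0.495 to 1.03. Cold exceeded control by 0.27 ± 0.22 (SE) (-0.26 to 0.80; adjusted p = 0.514). The gap between cold and knockout was 0.76 ± 0.22 (SE), a fold of 1.69 (1.17 to 2.44), with an adjusted p of 0.0977. That was the smallest adjusted p among the 10 regulators. Without knockout replicate 2 the gap was 1.01 with an adjusted p of 0.0165, and with only the cold and control arrays in the fit the difference of 0.27 had an adjusted p of 0.0199. Over all alternatives the adjusted p ran from 4.09e-05 to 0.667 for cold and knockout and from 0.00785 to 0.864 for cold and control. Both low ends came from the fit with array weights, which did not converge. Apart from that fit, 0.0165 and 0.0199 were the lowest. Without the 3 in-between arrays, the gap between cold and knockout was 0.77 (adjusted p = 0.667).

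The Pparg gene has 3 starts in the RefSeq table of GRCm38.p6, and the single array row does not part them. As background, the PPARγ2 isoform, found mainly in adipocytes, starts at the most downstream promoter, where C/EBP proteins are known to act. That promoter is shown because Pparg and Cebpa were lowest on the same array, knockout replicate 1. Their order of knockout arrays is shared by 30.9% of tested genes, and an action of C/EBPα on Pparg was not tested. The promoter runs from 250 bases before to 50 bases after the start, at chr6:115421816-115422115 (plus strand, 40.3% G or C). The capitals mark matches to the C/EBP core TTNNGCAA on either strand.
Pparg, downstream start: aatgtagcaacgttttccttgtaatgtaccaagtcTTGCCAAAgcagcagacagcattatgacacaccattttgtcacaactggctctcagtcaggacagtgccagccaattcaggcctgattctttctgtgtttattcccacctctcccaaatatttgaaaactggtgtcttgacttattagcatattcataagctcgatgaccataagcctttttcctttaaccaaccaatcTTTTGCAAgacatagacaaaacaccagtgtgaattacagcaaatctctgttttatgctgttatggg
The core was found at 2 places in this window. Its first base lies at position -215 from the start on the minus strand and at -16 on the plus strand. Among the 12 promoters of 9 of the regulators in the table, this was the 1 with a match, and 10.8% of all 32851 promoters in the table have one. The direct repeat to which PPARγ and RXR bind, searched as AGGTCA, any base and AGGTCA again, was in none of the 12 and in 0.0396% of all promoters. A match is a description of these letters and not a bound site.

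Rxra (Entrez 20181), the RXR subunit that pairs with PPARγ, held 9.12, 9.02 and 8.88 in the cold group, 8.68, 8.99 and 8.79 in the knockouts and 8.90, 8.68 and 8.72 in the controls. The 3 groups overlapped, with the cold arrays tending to the upper end. Cold differed from control by 0.24 ± 0.10 (SE) (95% interval -0.0021 to 0.48; adjusted p = 0.247). Knockout differed from control by 0.06 ± 0.10 (SE) (-0.19 to 0.30; adjusted p = 0.820), and cold from knockout by 0.18 (adjusted p = 0.291). Changes beyond 2-fold lie outside all 3 intervals.

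Cebpa (Entrez 12606) encodes C/EBPα, the partner that maintains Pparg in the mature adipocyte. Its log2 values were 14.30, 14.29 and 14.08 in the cold group, 13.59, 14.11 and 13.80 in the knockouts and 14.14, 14.04 and 13.97 in the controls. Knockout replicates 1 and 3 were the lowest of the 9 arrays and replicate 2 was within the range of the cold arrays, so the groups overlapped. Knockouts and controls differed by -0.22 ± 0.13 (SE) (-0.53 to 0.09; adjusted p = 0.455). Cold lay 0.17 ± 0.13 (SE) from control (adjusted p = 0.488) and 0.39 ± 0.13 (SE) from knockout (0.08 to 0.70; adjusted p = 0.125). Without knockout replicate 2 the last of these was 0.53, with an adjusted p of 0.0244. Without the 3 in-between arrays it was 0.34 (adjusted p = 0.667). Its adjusted p ranged from 1.09e-04 to 0.667 over all alternatives. The low end came from the fit with array weights, which did not converge, and 0.0244 was the lowest apart from that fit.

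Its promoter is shown as the other side of the loop between both genes. It lies at chr7:35119043-35119342 (plus strand, 67.3% G or C, RefSeq GRCm38.p6), and the capitals mark the letters TATAAA, which begin at position -30.
Cebpa: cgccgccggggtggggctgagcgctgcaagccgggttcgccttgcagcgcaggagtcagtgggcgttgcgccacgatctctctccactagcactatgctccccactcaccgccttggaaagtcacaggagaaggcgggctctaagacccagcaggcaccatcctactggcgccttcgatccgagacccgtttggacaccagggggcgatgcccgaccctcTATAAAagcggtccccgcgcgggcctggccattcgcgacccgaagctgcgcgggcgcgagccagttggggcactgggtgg
The core TTNNGCAA has no match in this window. TATAAA, searched on both strands, was found in 4 of the 12 promoters and in 13.6% of all promoters. The GC box GGGCGG was in 7 of the 12 and in 35.7% of all, and the E-box CACGTG in 3 of the 12 and in 7.15% of all. None of these motifs has letters in common with a match to another in the sequences shown.

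Cebpb (Entrez 12608) encodes C/EBPβ, which acts early in adipogenesis, is raised by cAMP and works with PRDM16 in thermogenic fat. The log2 values were 7.96, 7.99 and 8.25 in the cold group, 7.73, 8.96 and 8.07 in the knockouts and 7.82, 7.40 and 7.71 in the controls. The cold arrays all exceeded the controls, while the knockouts ran from the control range on replicate 1 to the highest value of the 9 arrays on replicate 2. The SD of 0.637 in the knockouts was at or above that of 94.9% of tested genes. Differences were 0.61 ± 0.30 (SE) for knockout against control (-0.09 to 1.31; adjusted p = 0.369) and 0.42 ± 0.30 (SE) for cold against control (-0.28 to 1.12; adjusted p = 0.445). A rise of 2-fold lies inside both intervals. Cold and knockout differed by -0.19 (adjusted p = 0.720), and this difference was 0.17 without knockout replicate 2.

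Cebpd (Entrez 12609) encodes C/EBPδ, the other early factor, also raised by glucocorticoids. It held 6.06, 6.38 and 6.77 in the cold group, 6.45, 6.66 and 6.41 in the knockouts and 7.36, 6.42 and 7.06 in the controls. Values were low in the cold group and in the knockouts, but control replicate 2 was as low as they were, so no pair of groups was separate. The differences were -0.44 ± 0.27 (SE) for knockout against control (-1.06 to 0.19; adjusted p = 0.459) and -0.54 ± 0.27 (SE) for cold against control (-1.16 to 0.08; adjusted p = 0.293). Both intervals hold a fall of 2-fold.

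**Figure D2:**
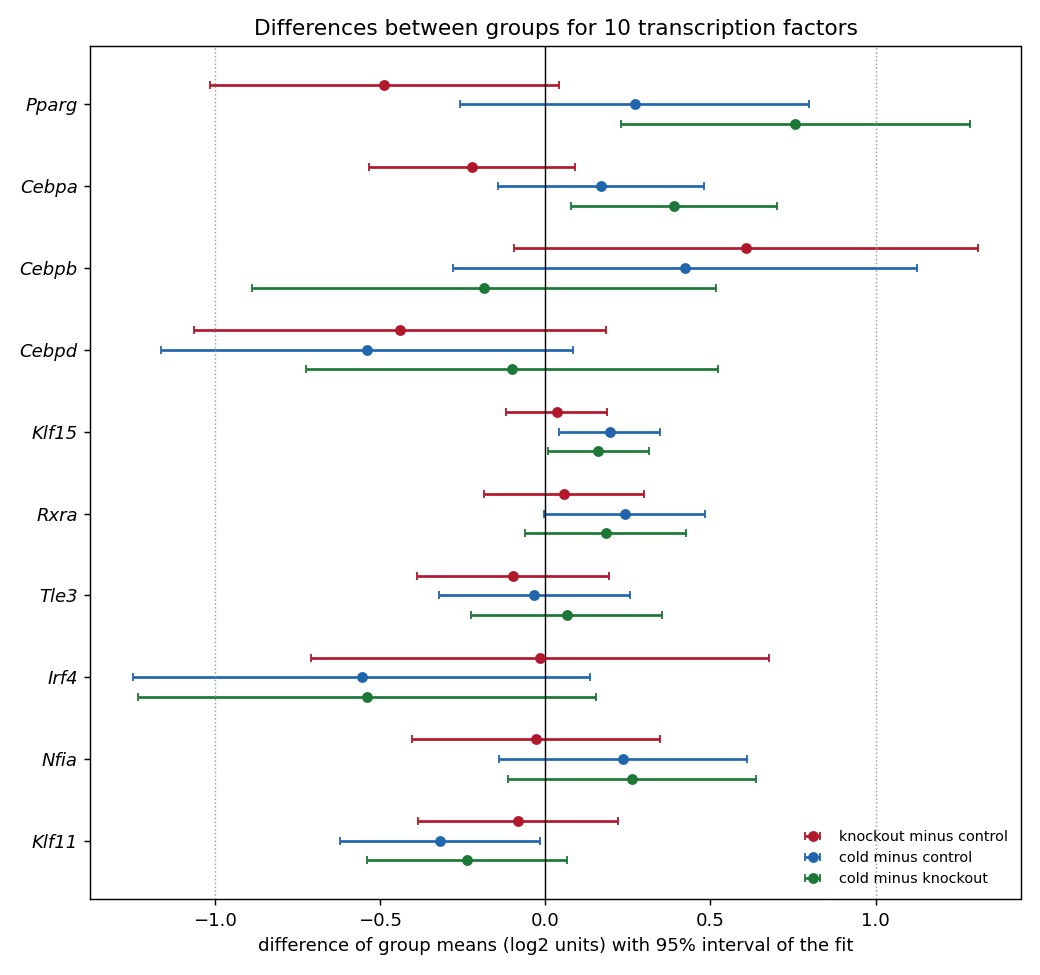
Differences of group means in log2 units (horizontal axis) for the 10 regulators, with bars for the 95% interval of the limma fit and dotted lines at 1 log2 unit, or 2-fold, on either side. The intervals of Klf15 are the narrowest and those of Cebpb and Irf4 the widest, and the cold minus knockout interval of Pparg runs from 0.23 to 1.28.

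Klf15 (Entrez 66277), a zinc finger factor that raises the glucose transporter Slc2a4 in adipocytes and controls amino acid breakdown in muscle and liver, held 7.84, 8.07 and 8.01 in the cold group, 7.79, 7.83 and 7.82 in the knockouts and 7.82, 7.71 and 7.81 in the controls. The 3 cold arrays were the highest of all, by small steps, and overlapped neither of the other groups. Cold differed from control by 0.20 ± 0.06 (SE) (0.04 to 0.35; adjusted p = 0.170) and from knockout by 0.16 ± 0.06 (SE) (adjusted p = 0.170). Knockout and control differed by 0.03 ± 0.06 (SE) (-0.12 to 0.19; adjusted p = 0.829). These are the tightest intervals of the 10, and a change of 2-fold lies far outside them. Skeletal muscle also expresses Klf15, and 7 muscle markers had mean differences from the control mean of 0.31, -0.78 and -4.33 on the cold arrays, -1.58, 0.23 and -0.43 on the knockout arrays and -0.30, 0.34 and -0.05 on the control arrays. The part of muscle in the Klf15 values was not tested.

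Klf11 (Entrez 194655), known from human adipocytes as a factor that PPARγ agonists use to raise beige genes, held 7.36, 7.61 and 7.82 in the cold group, 7.81, 7.88 and 7.81 in the knockouts and 8.12, 7.81 and 7.81 in the controls. Cold replicates 1 and 2 were the lowest arrays, and cold replicate 3 lay just above the lowest control values, so the groups overlapped. The difference of cold from control was -0.32 ± 0.13 (SE) (-0.62 to -0.01; adjusted p = 0.229), and that of knockout from control -0.08 ± 0.13 (SE) (-0.39 to 0.22; adjusted p = 0.790). Cold and knockout differed by -0.24 (adjusted p = 0.279).

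Nfia (Entrez 18027), which opens enhancers of brown fat genes together with PPARγ, held 11.67, 11.74 and 11.67 in the cold group, 11.15, 11.63 and 11.51 in the knockouts and 11.69, 11.17 and 11.52 in the controls. The cold arrays were tightly grouped near the top and lay above every knockout array, while control replicate 1 fell among the cold arrays and control replicate 2 with the lowest knockout. Cold differed from knockout by 0.26 ± 0.16 (SE) (-0.11 to 0.64; adjusted p = 0.327) and from control by 0.24 (adjusted p = 0.426). Knockout and control differed by -0.03 ± 0.16 (SE) (-0.40 to 0.35; adjusted p = 0.956).

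Tle3 (Entrez 21887) is a Groucho family coregulator that binds PPARγ and favours white over thermogenic genes by competing with PRDM16. It held 9.07, 9.07 and 9.07 in the cold group, 9.07, 8.89 and 9.06 in the knockouts and 9.36, 8.84 and 9.12 in the controls. The control arrays spanned the values of both other groups. All 3 cold arrays and knockout replicate 1 hold the same value, 9.07, to every deposited digit, so the cold group shows no spread of its own. The 3 differences lay between -0.10 (knockout against control) and 0.06 (cold against knockout), with adjusted p-values of 0.734 to 0.907, and no interval reached beyond 0.5 log2 units.

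Irf4 (Entrez 16364) promotes lipolysis genes in fasting and Ucp1, with PGC-1α, in thermogenic adipocytes, and it is also a factor of B and T lymphocytes and of macrophages. It held 6.84, 7.31 and 7.61 in the cold group, 8.33, 7.24 and 7.81 in the knockouts and 7.65, 7.94 and 7.83 in the controls. The cold arrays lay below all controls, and the knockouts ran from the highest value of the 9 arrays on replicate 1 to one below the controls on replicate 2. Cold differed from control by -0.56 ± 0.29 (SE) (-1.25 to 0.14; adjusted p = 0.323) and from knockout by -0.54 ± 0.29 (SE) (adjusted p = 0.278). Knockout and control differed by -0.02 ± 0.29 (SE) (-0.71 to 0.68; adjusted p = 0.995).

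Immune cell markers varied between the same arrays. The mean difference of 7 B cell markers from the control mean was -1.56, -1.03 and -0.62 on the cold arrays, 0.43, -0.85 and -0.14 on the knockout arrays and -0.75, 0.74 and 0.02 on the control arrays. For 6 T cell markers it was -0.98, -1.08 and -1.14 on the cold arrays, 1.58, -0.25 and 0.90 on the knockout arrays and -0.35, 0.38 and -0.02 on the control arrays. For 10 macrophage markers it was -1.30, -1.19 and -1.10 on the cold arrays, 0.55, -1.23 and -0.18 on the knockout arrays and -0.56, 0.58 and -0.02 on the control arrays. Irf4, the B cell, the T cell and the macrophage markers were all highest on knockout replicate 1 among the knockouts and lowest on replicate 2, and among the controls all were lowest on replicate 1. In the cold group Irf4, the B cell and the macrophage markers were lowest on replicate 1 and highest on replicate 3, while the T cell markers had the opposite order. No marker of these lists passed the test in any comparison, the log2 scale has no true zero, and the part of these cells in the Irf4 values was not tested.

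**Figure D3:**
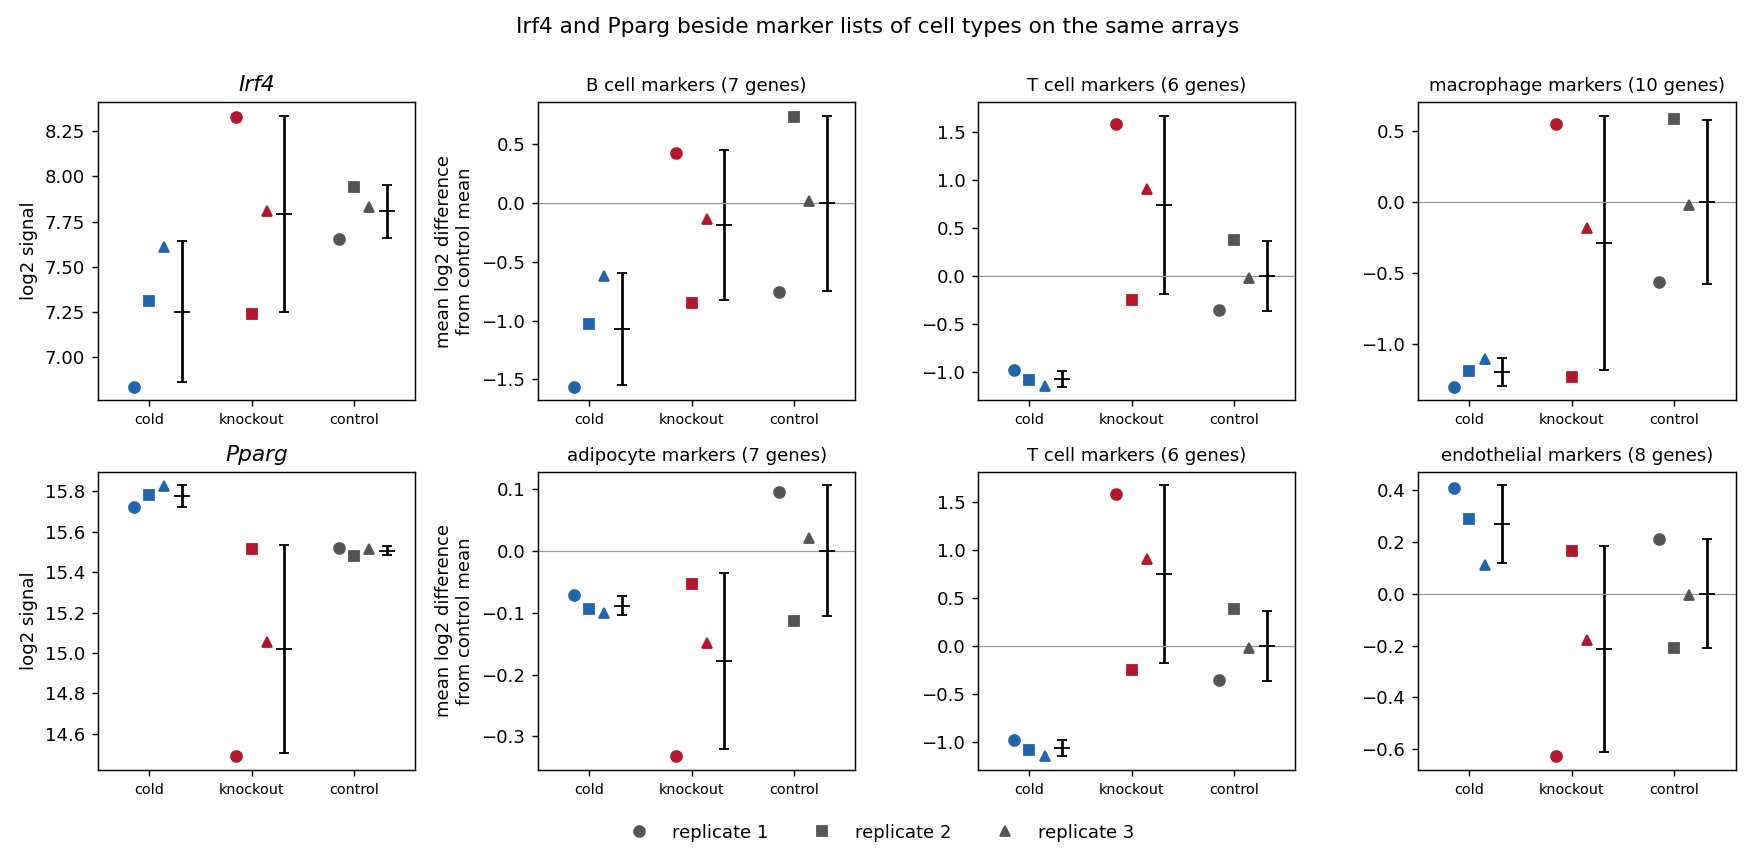
Irf4 (log2 signal, upper left) and Pparg (lower left) beside mean log2 differences of marker lists from the control mean on the same arrays, with circles, squares and triangles for replicates 1, 2 and 3 and bars for the mean ± SD of 3 arrays. Knockout replicate 1 is high for T cell markers (1.58) and low for adipocyte (-0.33) and endothelial markers (-0.63), and it has the lowest Pparg value of 14.49.

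Among the knockouts, 6 of the 10 regulators (Pparg, Cebpa, Cebpb, Klf15, Rxra and Nfia) were lowest on replicate 1 and highest on replicate 2, an order that 30.9% of tested genes share. Tle3 and Irf4 had the opposite order, as did 31.1% of tested genes. Of 7 measured adipocyte markers, Fabp4 and Car3 read 19.9 on every array, at the top of the scale, which holds the list mean toward 0. The mean difference of the 7 markers from the control mean was -0.07, -0.09 and -0.10 on the cold arrays, -0.33, -0.05 and -0.15 on the knockout arrays and 0.09, -0.11 and 0.02 on the control arrays. That of 8 endothelial markers was 0.41, 0.29 and 0.11 on the cold arrays, -0.63, 0.17 and -0.18 on the knockout arrays and 0.21, -0.21 and -0.0049 on the control arrays. Knockout replicate 1, low for Pparg and Cebpa, was thus also low for adipocyte, endothelial and muscle markers and high for T cell markers, and the part of cell makeup in the regulators' values was not tested.

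Nearest to Pparg, other PPAR, RXR and LXR receptors gave 1 change. Of 4 measured of 6 listed, 1 rose in knockouts against controls, where 0.234% of all tested genes rose. In the other comparisons 0 passed. The medians of the list were 0.36 (knockout and control), 0.07 (cold and control) and -0.29 (cold and knockout). Ppara, the receptor that drives fatty acid oxidation and is a mark of brown fat, measured 9.30, 9.30 and 9.30 in the cold group, 9.78, 11.20 and 10.62 in the knockouts and 8.29, 8.37 and 8.16 in the controls. All 3 knockout arrays exceeded every cold array, and the cold arrays, which share 1 value, exceeded every control. The rise in knockouts was 2.26 ± 0.31 (SE), with an adjusted p of 0.0463. The cold group differed from control by 1.03 ± 0.31 (SE) (adjusted p = 0.148), and cold differed from knockout by -1.23 (adjusted p = 0.0755). The difference in knockouts ran from 1.92 to 2.63 over the alternatives, its call held under 7 of 19, and it was lost when control replicate 1 or 3, knockout replicate 2 or 3 or any cold array was left out.

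Of 11 measured KLF factors of 13 listed, 1 rose in cold against control, where 1.36% of all tested genes rose. In cold against knockout 1 was higher, against 1.24% of all genes, and 0 passed between knockout and control. The medians were -0.12 (knockout and control), -0.04 (cold and control) and 0.05 (cold and knockout). Klf13 measured 9.56, 9.49 and 9.24 in the cold group, 9.11, 9.11 and 8.94 in the knockouts and 8.77, 8.78 and 8.88 in the controls. Every cold array was above every array of the other groups, and cold exceeded control by 0.62 ± 0.09 (SE) (adjusted p = 0.0270). Klf6, which promotes adipogenesis by repressing Dlk1, measured 12.56, 12.68 and 12.44 in the cold group, 11.74, 12.15 and 11.94 in the knockouts and 12.30, 12.29 and 12.30 in the controls. The knockouts were lowest, and cold exceeded them by 0.62 ± 0.11 (SE) (adjusted p = 0.0378). Klf13 kept its call under 10 of 19 alternatives and lost it without any 1 control array, knockout replicate 3 or cold replicate 1 or 2. Klf6 kept its call under 9 and lost it without control replicate 3, knockout replicate 1 or 3 or any cold array. The differences ran from 0.56 to 0.72 for Klf13 and from 0.52 to 0.72 for Klf6.

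The families of Nfia, the C/EBPs, Tle3 and Irf4 gave no gene past the threshold. All 3 other NFI genes were measured, and their differences between cold and control were above 0, with a median of 0.51. Over all tested genes 43.3% of differences were above 0 there. The 2 largest were Nfic at 0.67 (adjusted p = 0.0682) and Nfib at 0.51 (adjusted p = 0.180). Of 5 measured bZIP genes of 6 listed, the differences of largest size were 0.59 for Ddit3 in knockouts against controls (adjusted p = 0.198) and -0.43 for Creb1 in cold against knockout (adjusted p = 0.0627). Of 4 measured TLE genes of 5 listed, Tle4 differed most, by -0.53 in cold against knockout (adjusted p = 0.119). All 7 measured IRF genes of 8 listed had differences below 0 for cold against control, with a median of -0.48, and for cold against knockout, with a median of -0.53. Over all tested genes, 43.3% and 42.6% of differences in these comparisons were above 0. Groups were fully separate for 1 and 2 of the 7 genes, against 32.9% and 32.5% of all genes. Irf8, a factor of macrophages and B cells, differed in the cold group by -0.77 from control (adjusted p = 0.333) and by -1.04 from knockout (adjusted p = 0.168). The immune marker lists were low on the cold arrays too, and the part of these cells in the IRF values was not tested.

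**Figure D4:**
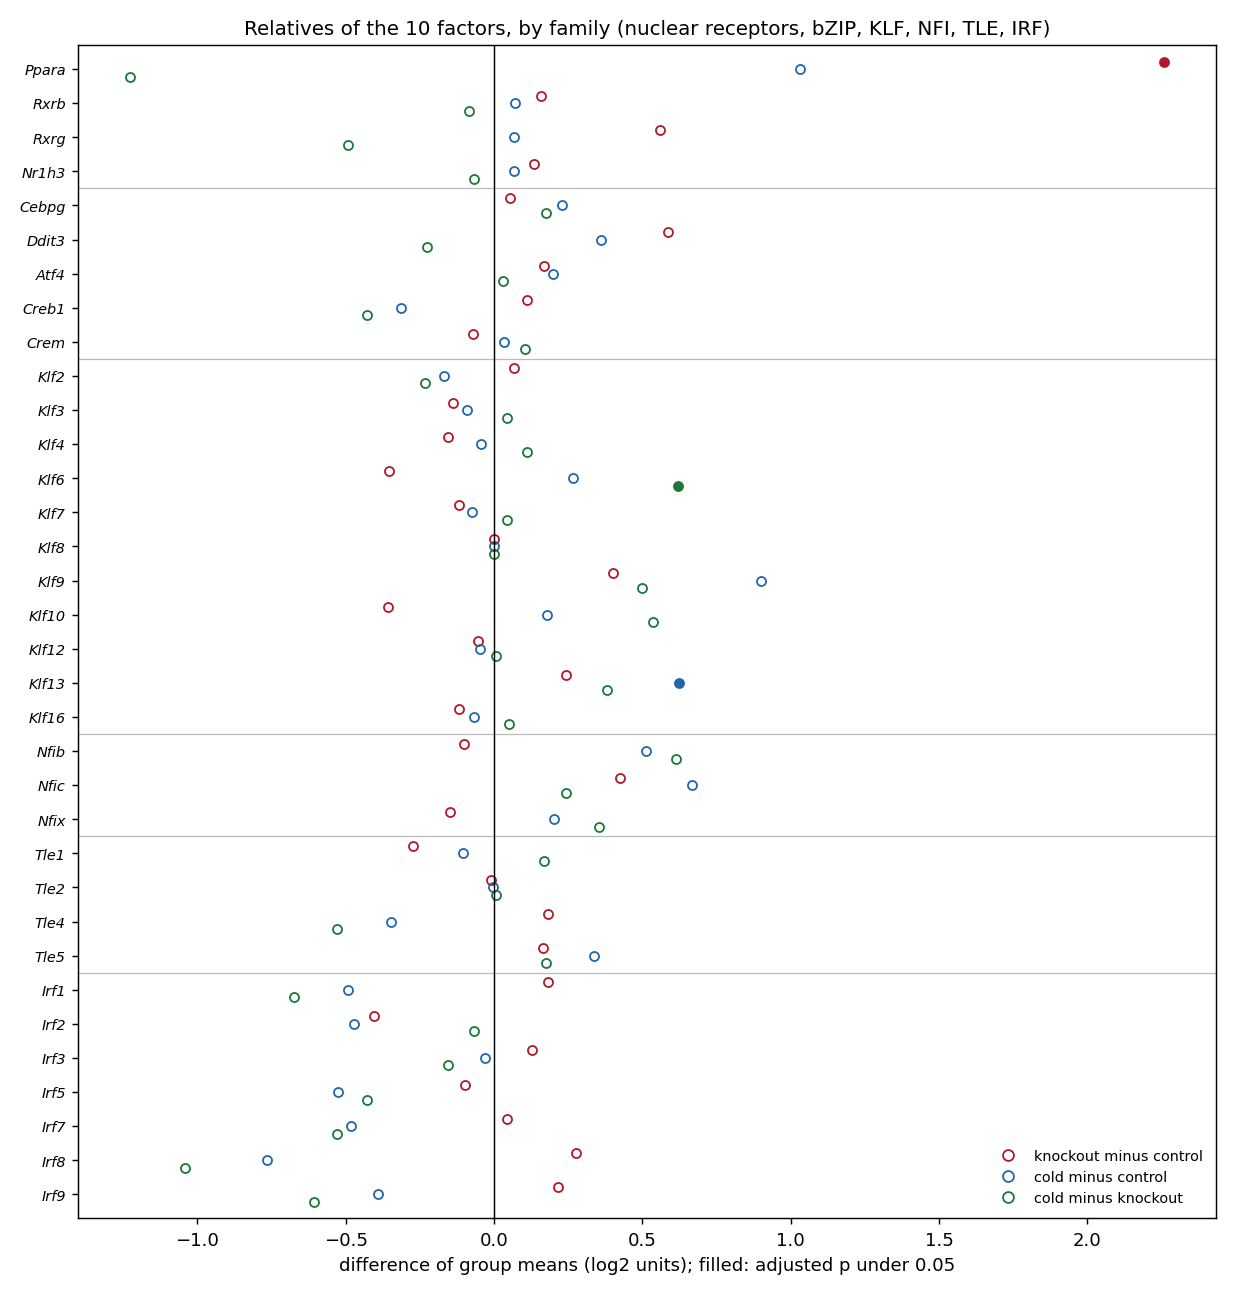
Differences of group means in log2 units (horizontal axis) for measured relatives of the 10 regulators, grouped by family, with 1 point for each comparison and filled points where the adjusted p was under 0.05. Filled points are Ppara for knockout minus control (2.26), Klf13 for cold minus control (0.62) and Klf6 for cold minus knockout (0.62).

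PPARγ works through coregulators, of which 16 of 18 listed were measured. None passed against the controls, and 1, Med1, the Mediator subunit that PPARγ contacts, was lower in cold than in knockout. Over all tested genes 1.17% were lower there. Med1 measured 9.69, 9.68 and 9.68 in the cold group, 9.87, 9.99 and 9.99 in the knockouts and 9.65, 9.72 and 9.72 in the controls. The difference was -0.27 ± 0.04 (SE) (adjusted p = 0.0352), small but with no overlap, and the call held under 9 of 19 alternatives, over which the difference ran from -0.31 to -0.18, and was lost without control replicate 3, knockout replicate 3 or any cold array. Ppargc1a, which encodes the thermogenic coactivator PGC-1α, measured 10.69, 10.45 and 10.15 in the cold group, 9.77, 13.80 and 12.40 in the knockouts and 8.87, 8.69 and 8.55 in the controls. All knockout arrays but replicate 1 exceeded the cold arrays, and the controls were lowest, yet the difference of 3.29 ± 0.89 (SE) between knockout and control did not pass (adjusted p = 0.142). Ppargc1b differed by 1.87 there (adjusted p = 0.0777). The smallest adjusted p of the list in that comparison, 0.0575, belonged to Cited2, which differed by -1.25, with every knockout array below every control array. Medians over the list were -0.0041 (knockout and control), -0.15 (cold and control) and -0.12 (cold and knockout).

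Of 20 measured other adipogenic factors of 24 listed, 0 passed in any comparison. The values farthest from 0 were 1.69 for Esrrg, an orphan nuclear receptor of oxidative genes (adjusted p = 0.104) and -0.76 for Tcf7l2, a factor of Wnt signalling (adjusted p = 0.0804) in knockouts against controls. Mlxipl, which encodes the glucose-sensing factor ChREBP, differed by 1.68 in cold against control (adjusted p = 0.0926), and Zbtb16 by 1.71 in cold against knockout (adjusted p = 0.0664).

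The genes listed as targets of PPARγ and C/EBPα mostly did not pass. Of 27 measured of 32 listed, 3 rose and 0 fell in knockouts against controls, 5 rose and 1 fell in cold against control, and 2 were higher and 0 lower in cold than in knockout. Over all tested genes, 0.234% rose and 0.144% fell in knockouts, 1.36% rose and 0.204% fell in cold against control, and 1.24% were higher and 1.17% lower in cold than in knockout. The medians were -0.04, 0.12 and 0.10 in these comparisons, against 0.02, -0.02 and -0.03 over all tested genes. Groups were fully separate for 9, 16 and 7 of the 27, against 17.4%, 32.9% and 32.5% of all genes. A median does not show differences of both signs, such as 1.88 for Gpd1 and -1.08 for Pck1 in cold against control. The 3 that rose in knockouts are known from thermogenic fat. Ucp1, the uncoupling protein, rose by 6.90 ± 0.47 (SE) in knockouts (adjusted p = 0.00855) and by 6.61 ± 0.47 (SE) in cold (adjusted p = 0.00224). It read 19.92 and 19.68 on knockout replicates 2 and 3, near the upper end of the scale at 19.93, which limits the size of its rise there. Cpt1b, which brings fatty acids into mitochondria, rose by 4.87 in knockouts (adjusted p = 0.0272) and by 4.25 in cold (adjusted p = 0.0140). For Cidea, a lipid droplet protein of brown fat, the rises were 3.40 in knockouts (adjusted p = 0.0272) and 2.68 in cold (adjusted p = 0.0221). Leaving out control replicate 1 or 3 or knockout replicate 3 ended the calls of all 3 in knockouts, as did cold replicate 2, and for Cpt1b and Cidea also cold replicate 1 or 3, while the differences kept sizes of 6.57 to 7.39 (Ucp1), 4.35 to 5.46 (Cpt1b) and 3.11 to 3.73 (Cidea) over all alternatives.

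The other targets that passed, all in comparisons with the cold group, are known from fatty acid and glyceride metabolism. Gpd1, which makes glycerol 3-phosphate, measured 18.61, 18.62 and 18.75 in the cold group, 17.12, 18.11 and 17.71 in the knockouts and 16.69, 16.91 and 16.73 in the controls. Every cold array exceeded every other array, and the rise against control was 1.88 ± 0.22 (SE) (adjusted p = 0.0138). Dgat2, which makes triglyceride, measured 18.61, 18.65 and 18.65 in the cold group, 17.72, 18.10 and 17.98 in the knockouts and 18.01, 17.89 and 18.02 in the controls. Its cold values were again all above the rest, by 0.67 ± 0.09 (SE) against control (adjusted p = 0.0252) and 0.71 ± 0.09 (SE) against knockout (adjusted p = 0.0198). Pck1, the enzyme of glyceroneogenesis and a direct PPARγ target, measured 16.66, 17.09 and 17.47 in the cold group, 17.71, 17.65 and 17.70 in the knockouts and 18.27, 18.03 and 18.15 in the controls. Values were lowest in the cold and highest in the controls, and the fall in cold was -1.08 ± 0.18 (SE) (adjusted p = 0.0419). Fabp5, a fatty acid binding protein, measured 9.62, 9.85 and 9.92 in the cold group, 7.90, 8.74 and 8.39 in the knockouts and 8.91, 8.91 and 8.91 in the controls. All 3 controls hold 1 shared value between those of the other groups, and cold exceeded knockout by 1.45 ± 0.20 (SE) (adjusted p = 0.0198).

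The calls depended on single arrays and on other settings. Of 19 alternatives, 18 kept the call of Ucp1 in cold against control, 12 that of Cpt1b, 11 that of Cidea, 12 that of Gpd1, 10 that of Dgat2 and 7 that of Pck1. In cold against knockout, 12 kept that of Dgat2 and 11 that of Fabp5, and in knockouts against controls 12, 9 and 9 kept those of Ucp1, Cpt1b and Cidea. Pck1 also lost its call with no row filter, with quantile normalization, with trend and robust eBayes, with the replicate block, in the fit of the 2 groups and without the 3 in-between arrays. In cold against control, that of Ucp1 held with any 1 array left out. Those of Cpt1b, Cidea and Gpd1 were lost without control replicate 1 or 3 or any cold array, and that of Cidea also without knockout replicate 3. The calls of Dgat2 and Pck1 were lost without any 1 control array, knockout replicate 3 or cold replicate 1 or 2, and that of Dgat2 also without cold replicate 3. In cold against knockout, Dgat2 and Fabp5 lost theirs without control replicate 3, knockout replicate 3 or any cold array. Over all alternatives the differences from control ran over 1.84 to 1.96 for Gpd1, 0.63 to 0.76 for Dgat2 and -1.27 to -0.87 for Pck1, and that of Fabp5 from knockout over 1.23 to 1.65.

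Adipoq, which encodes adiponectin, measured 14.78, 14.76 and 14.71 in the cold group, 14.70, 14.76 and 14.72 in the knockouts and 15.34, 14.92 and 15.29 in the controls. Every cold and knockout array was below every control array, but the differences of -0.44 for cold (adjusted p = 0.0940) and -0.46 for knockout (adjusted p = 0.0957) did not pass. Fabp4, the fatty acid binding protein of adipocytes, read 19.9 on every array, at the top of the scale, where differences are compressed. Adipoq, Fabp4, Car3 and Cited2 were named after their values were seen.

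**Figure D5:**
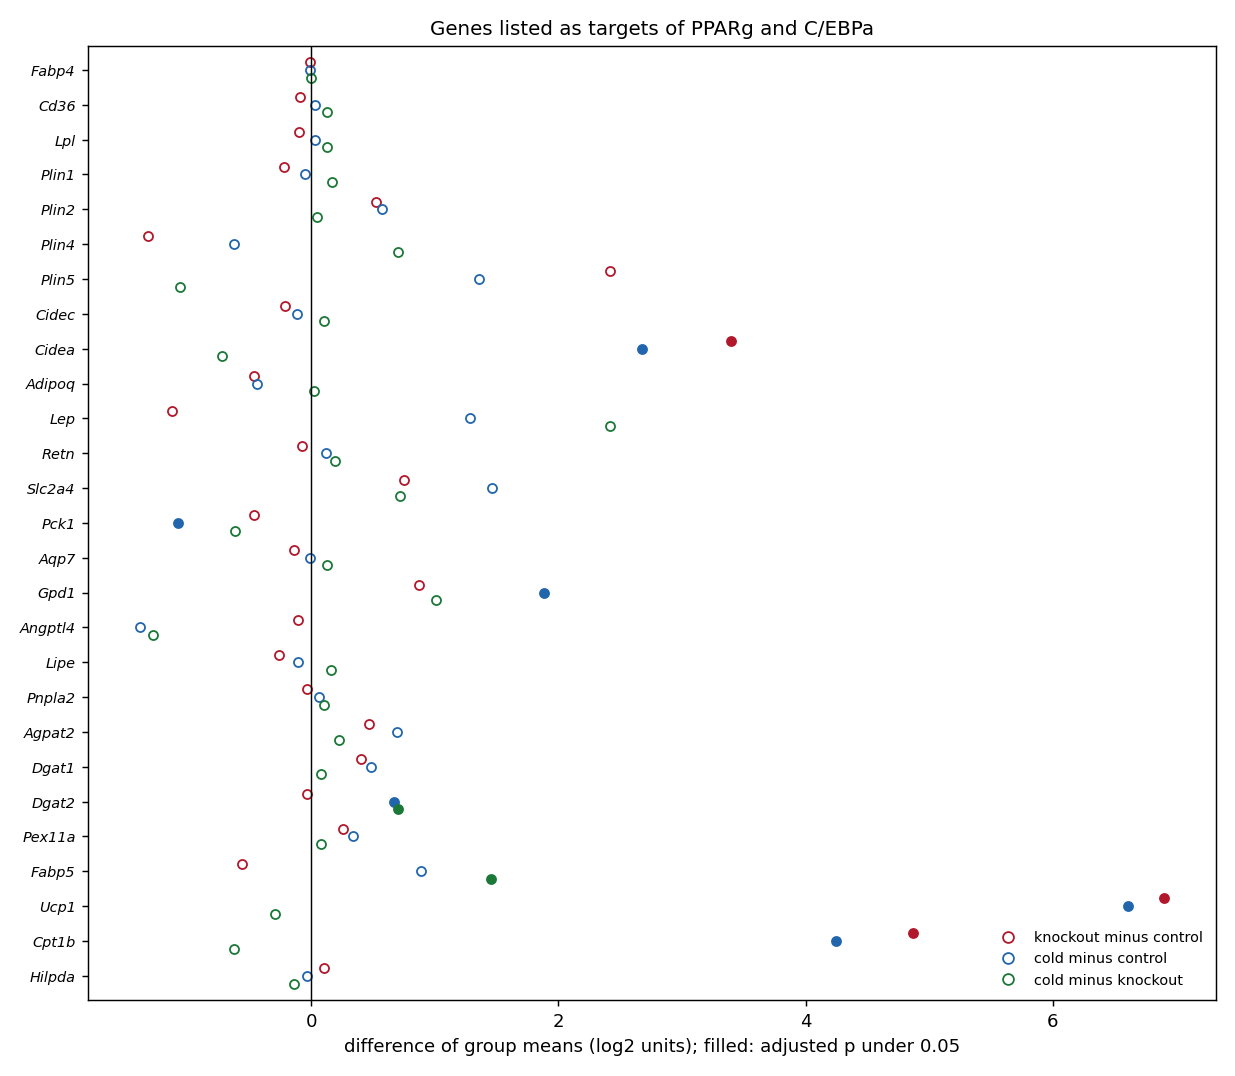
Differences of group means in log2 units (horizontal axis) for 27 genes listed as targets of PPARγ and C/EBPα, with 1 point for each comparison and filled points where the adjusted p was under 0.05. Ucp1, Cpt1b and Cidea stand far to the right for both comparisons with control (Ucp1 at 6.90 for knockout and 6.61 for cold). The other genes lie less far out, on both sides, among them Gpd1 (1.88) and Pck1 (-1.08) for cold minus control.

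The genes whose pattern over the 9 arrays was nearest to each regulator were found by the root mean square distance of row-centred log2 values. For Pparg these were Itga6 at 0.120 and Car4 at 0.123 log2 units, where Pparg itself varied by 0.397 about its own mean. Rxra, which varied by 0.150, was nearest to Rapgef2 at 0.0434 and Caskin2 at 0.0454. For Cebpa, with a variation of 0.214, Kctd17 lay at 0.0477 and Trip6 at 0.0632. Slc25a46 at 0.106 and Mfsd4b1 at 0.107 were nearest to Cebpb, which varied by 0.414. Cebpd, with 0.372, had its nearest genes farther off, Tmem252 at 0.160 and Rhou at 0.171. Klf15 varied least of the 10. Srm at 0.0273 and Prickle2 at 0.0310 were nearest to Klf15, with a variation of 0.106. Dad1 at 0.0751 and Ccdc174 at 0.0862 were nearest to Klf11, with 0.193. Nfia, with 0.209, lay nearest to Prdx2 at 0.0582 and Serinc1 at 0.0610. The nearest genes of Tle3, which varied by 0.138, were Lgi2 at 0.0369 and Manea at 0.0490. Irf4, which varied by 0.413, had Pag1 at 0.0997 and the T cell receptor segment Trgj3 at 0.112. Some of these genes repeat a value on the same arrays as the regulator. Pparg, Itga6 and Car4 each do so on control replicate 3 and knockout replicate 2, and Klf15 and Srm on control replicate 1 and knockout replicate 3. Tle3 and Lgi2 do so on knockout replicate 1 and all 3 cold arrays. The part of shared values in the distances was not tested. These distances describe 9 arrays of 3 groups, and they say nothing of function.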

How the data were processed

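Total RNA was hybridised to Affymetrix Mouse Transcriptome Array 1.0, 1 array per sample. The authors deposited 1 value per row and array, read here as log2 from its range of 1.84 to 19.93. Per the submitters' processing notes the values come from Affymetrix Expression Console. For that step the version, summarisation, normalization and build were not given in the sources used here, and array rows therefore have no coordinates. Of the rows, 30604 name 1 gene symbol and 2146 name several; 827 symbols were updated through Entrez ID with the RefSeq table. Genes were tested where the row mean was at or above the table's median row mean, 5.31, with the brightest row per gene. The number of arrays limits the precision.

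Groups came from the labels. Cold replicate 3 carries a slightly different array prefix. R 4.3.3 with limma 3.58.1 (lmFit, eBayes) fitted 3 group means to all 9 arrays. Tests were two-sided, with Benjamini-Hochberg adjustment over 16639 genes at 0.05. The fit was also run on simulated independent arrays with a pooled spread for each gene. Those lack the shared values and in-between arrays of these data, so that run checks the code only. Errors are moderated standard errors, and intervals are at 95%. The members and the lists were chosen with earlier results of these data known. Named are Zfp423, the members, list genes past the threshold (or up to 2 of largest difference), and for each member the 2 genes nearest in pattern. Exact permutation of 3 against 3 arrays cannot go below p = 0.1. Alternatives were row filters, quantile and median scaling, trend and robust eBayes, array weights, the replicate block, 2-group fits, gene means and leaving out single arrays or the 3 in-between arrays; applying them to the list genes was chosen after seeing the data.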

Additional observations from a re-analysis of the deposited data

How the results depend on the processing

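Without the replicate block 63, 260 and 402 genes passed between knockout and control, between cold and control and between cold and knockout, and in that order the other settings gave these counts. No row filter gave 16, 131 and 218, and a filter at the 75th percentile 144 and 705 for the first and last. Quantile normalization gave 403 for the middle one, and trend and robust eBayes 37 for the first. Array weights gave 11755, 8946 and 9904, but that fit did not converge and put a weight of 1659 on knockout replicate 3, against 0.0807 to 11.7 on the other arrays. Fits of only the groups compared gave 0 (limma, 1923 at an unadjusted p under 0.05) for the first and 1347 for the middle one. Leaving out the 3 in-between arrays gave 0 in each, with the unadjusted counts and the limit of that choice stated above.

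With the replicate block the counts were 1, 42 and 36, and no regulator passed (smallest adjusted p = 0.176). Deviations of same-numbered arrays correlated by -0.46 to 0.09. Those of differently numbered arrays correlated by -0.23 to 0.47, highest for knockout replicate 1 and control replicate 2. Equal numbers thus did not mark the most alike arrays. The arrays of a group share the mean from which they deviate, so these correlations depend on each other and cannot exclude pairing.

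Leaving out any 1 array moved each of the 3 counts by over 1.5 times. The ranges were 0 (1946 and 2264 at an unadjusted p under 0.05, without knockout replicate 3 and without cold replicate 2) to 834 (without knockout replicate 1) for knockout against control, 23 (without cold replicate 2) to 983 (without knockout replicate 2) for cold against control, and 14 (without knockout replicate 3) to 2703 (without knockout replicate 2) for cold against knockout. The cause was not tested.

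Of 567 values of the 10 regulators under the 19 settings, 25 passed, 22 of them under array weights; the other 3 are given with Pparg and Cebpa above. Direction turned in 15, all for differences that were at most 0.186 in size with all arrays and settings as reported; the turned values, given next, reach 0.26. Median centring gave -0.0024 for Klf15 (knockout against control) and 0.0077 for Tle3 (cold against control), and quantile normalization 0.0096 for that value of Tle3. The rest turned with 1 array left out, which moved the difference of knockout from control over -0.0023 to 0.056 for Klf15 (lowest without control replicate 2), -0.027 to 0.13 for Rxra (without knockout replicate 2), -0.23 to 0.029 for Tle3 (highest without control replicate 1), -0.28 to 0.26 for Irf4 (above 0 without knockout replicate 2, and at 0.052 without control replicate 2), -0.17 to 0.11 for Nfia (above 0 without knockout replicate 1, control replicate 1 or control replicate 3, at 0.11, 0.088 and 0.0038) and -0.13 to 0.022 for Klf11 (highest without control replicate 1). Cold from control ran over -0.17 to 0.094 for Tle3 (highest without control replicate 1). Cold from knockout ran over -0.45 to 0.17 for Cebpb (highest without knockout replicate 2) and -0.28 to 0.073 for Cebpd (highest without cold replicate 1). Irf8, for knockout against control, ran over -0.069 to 0.61, lowest without control replicate 1 and at -0.053 without knockout replicate 1.

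The scale ends near 19.9, which compresses the brightest genes, and the values carry no detection call. With 3 arrays per group, a 2-fold change lies outside the interval for 22 of the 30 differences.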
